A study of Mus musculus with 18 samples.

Results

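Neat1, the long noncoding RNA that builds paraspeckles, Sfpq, Nono and Pspc1, which encode the core paraspeckle proteins, and Malat1, the neighbouring nuclear long noncoding RNA, were followed through prostates that lack ELAC2 or carry an altered form of it. These 5 genes were taken by symbol from the 55469 rows of each table of normalized counts, and each was found once and passed the filter on low values in all 4 comparisons. WT (ELAC2+/+), KO (ELAC2-/-) and A537T (ELAC2A537T) male mice of the C56NL/6N strain were compared at 10 and 30 weeks of age, with 3 libraries in each of 6 groups. In KO mice, Pb-Cre removed exon 8 of Elac2 in the prostate, and cells of the lobes in which this Cre is not active keep the gene. A537T mice were homozygous in the whole body for the Ala537Thr change, an alanine replaced by threonine, and WT mice were matched by age and litter. RNA came from whole ventral and lateral lobes, so fewer cells of a type and less RNA per cell cannot be told apart.

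Paraspeckles are bodies of the cell nucleus that form on the long isoform of Neat1, and SFPQ, NONO and PSPC1 are related RNA-binding proteins that coat it. Malat1 lies next to Neat1 on the chromosome and its RNA gathers in nuclear speckles, which hold splicing factors. The 3′ ends of Malat1 and of long Neat1 are made in an unusual way: RNase P cuts before a tRNA-like structure, and RNase Z, the enzyme that ELAC2 is, trims the 3′ end of the small RNA that is released. The study also asked which proteins ELAC2 associates with, and the RNA levels of paraspeckle members in both mutant lines address whether these genes differ in expression.

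The tRNA-like sequences show what the processing enzyme meets at both long RNAs. They are written 5′ to 3′ on the reverse strand of GRCm38, read from GENCODE transcripts. Capitals mark GGGTTCNAGTCCCTGC, the longest stretch of 16 bases that both have in common when 1 mismatch (N) is allowed, which takes in the T arm of the tRNA-like fold. The small RNA of Malat1, mascRNA, is placed by RefSeq at chr19:5795924-5795981, inside the single exon of Malat1. Gm27702 is annotated at chr19:5824652-5824707, directly after the last base of Neat1.
mascRNA: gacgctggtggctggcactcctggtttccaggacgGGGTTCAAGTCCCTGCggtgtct
Gm27702: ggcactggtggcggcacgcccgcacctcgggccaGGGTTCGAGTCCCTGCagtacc
Of all 141767 annotated transcripts, 3 (0.00212%) hold these letters on either strand, 1 each of Malat1, Gm27702 and Ten1.

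The 120 bases before each tRNA-like sequence are the 3′ ends that the cut would leave on the long RNAs, at chr19:5795982-5796101 for Malat1 and chr19:5824708-5824827 for Neat1. Capitals mark the 11 bases that both share directly before the cut, an A-rich stretch.
Malat1 end: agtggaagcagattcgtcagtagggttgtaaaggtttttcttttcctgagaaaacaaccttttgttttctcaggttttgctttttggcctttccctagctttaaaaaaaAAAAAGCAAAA
Neat1 end: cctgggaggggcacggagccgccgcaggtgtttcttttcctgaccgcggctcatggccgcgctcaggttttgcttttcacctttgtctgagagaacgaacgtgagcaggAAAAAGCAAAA
On either strand, 119 of 137364 transcripts (0.0866%) hold these 11 bases in their last 120 bases. Annotated transcripts that end in these 11 bases numbered 9 (0.00655%). Gm27702 had 0 counts in every library, which allows up to 3, and counts for mascRNA were not analysed here. The values below are therefore of the long RNAs, and they show neither how the small RNAs were trimmed nor which isoform of Neat1 was present, because a gene count joins its short and long forms.

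The members differed widely in abundance. Neat1 (ENSMUSG00000092274.3) spans chr19:5824708-5845478 on the reverse strand, with a long transcript of 20771 bases and a short one of 3004. Malat1 (ENSMUSG00000092341.3) lies 22035 bases away at chr19:5795690-5802672 on the same strand, with a transcript of 6983 bases. Sfpq (ENSMUSG00000028820.13) lies at chr4:127021324-127037013, Nono (ENSMUSG00000031311.17) at chrX:101429318-101448591 and Pspc1 (ENSMUSG00000021938.12) at chr14:56720710-56778316. These coordinates are from GENCODE on GRCm38.

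Levels between genes were compared as normalized counts per kb of merged exons. Malat1 stood at a median of 25306 per kb over the 18 libraries, Neat1 at 1535, Sfpq at 213, Nono at 200.49 and Pspc1 at 32.8. Malat1 exceeded Neat1 per kb in 18 of 18 libraries, by 11.3 to 31.8 times. Neat1 exceeded Nono per kb in 18 of 18 libraries, and Sfpq exceeded Pspc1 in 18 of 18. Nono and Sfpq were neighbours without a fixed order, with Nono the higher per kb in 6 of 18 libraries. The tables were scaled separately, so these ranges join 4 scales. Neat1 counts of the whole length understate the level of its 5′ part per kb where the short isoform prevails.

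Neat1 was also the member that varied most between mice of 1 group, in each of the 6 groups. The coefficient of variation of its normalized count was 33.7% in WT at 10 weeks (n = 3), against 8.75% for Malat1, 9.92% for Sfpq, 6.53% for Nono and 19.7% for Pspc1 in the same table. The normalized count is the gene count divided by a size factor of the library. In KO mice at 10 weeks the coefficient of variation was 26.9% for Neat1 and 0.506% for Malat1 (n = 3 each).

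Library totals ranged from 6569642 to 11225281 recovered counts, with a median of 8586877. Marker genes of other tissues differed between libraries. With each WT library read from its table with KO, the 8 seminal vesicle genes took 4.64% or more of counts in 8 libraries, which were library 10AF of WT and all 3 of KO at 10 weeks, libraries 4AF and 6AF of KO and 7AF and 9AF of A537T at 30 weeks. They took 1.76% or less in the other 10. The 20 skeletal muscle genes at 10 weeks took 3.94 to 12.7% in WT, 1.56 to 4.38% in A537T and 0.0593 to 2.06% in KO libraries, and at 30 weeks no more than 0.0725% in any library. The 10 genes of prostate luminal epithelium, which check the labelled tissue, were present in every library at 0.470 to 14.8%, lowest in KO library 15AF at 10 weeks.

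Elac2 itself, the targeted gene, was counted in every library. In KO at 10 weeks its normalized counts were 119, 111 and 115, against 124, 142 and 166 in WT. The groups did not overlap, and the log2 fold change (log2FC) of -0.31 did not pass the test (adjusted p = 0.325 from limma, standard error 0.16). By 30 weeks KO held 98.4, 151 and 122 and WT 150, 153 and 194, which overlap (log2FC -0.43, adjusted p = 0.478 from limma). In A537T the log2FC was 0.19 at 10 weeks and -0.23 at 30 weeks (adjusted p = 0.796 and adjusted p = 0.658 from limma). Most of the Elac2 transcript lies outside exon 8, so these counts are no check of the deletion.

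In KO prostates at 10 weeks, Sfpq was the only member whose groups did not overlap in normalized counts. Neat1 was the member that differed most in size, but neither passed the test. Of 15089 genes tested, limma called 0 (0.0%), with 1202 higher (7.97%) and 1728 lower (11.5%) at an unadjusted p under 0.05. edgeR also called 0, and DESeq2 called 715. Groups did not overlap for 26.0% of all genes, and 11.7% were higher in KO in this way, so 1 of 5 members is near the background.

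Sfpq encodes a splicing and transcription factor that pairs with NONO. Its normalized counts were 1062, 1076 and 1085 in the KO libraries. In WT they were 921, 860 and 755. Every KO library was above every WT library, and the KO libraries were nearly equal. Its log2FC was 0.35 (standard error 0.12, 1.28-fold, 95% interval 1.05 to 1.55), with an unadjusted p = 0.0212 and an adjusted p = 0.200 from limma. DESeq2 gave an adjusted p = 0.139 and edgeR an adjusted p = 0.236. Without WT library 10AF the log2FC was 0.41 and passed the threshold (adjusted p = 0.0466 from limma), in a fit that called 2886 genes. Scaled to the same total it was 0.56 (adjusted p = 0.213 from limma), and also 0.56 with muscle and seminal vesicle genes left out of that total (adjusted p = 0.190 from limma), where the median of all genes was 0.20 in both. Over all alternatives the adjusted p ran from 0.0466 to 0.999. When adjusted for the seminal vesicle score, added after the data were seen, the log2FC was 0.23 (adjusted p = 0.825 from limma).

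Neat1 normalized counts were 18179, 22387 and 12839 in KO and 19770, 34967 and 40402 in WT. One WT library, 10AF, lay inside the KO range, and the other WT libraries lay above every KO library. Its log2FC was -0.81 (standard error 0.35, 0.572-fold, 95% interval 0.320 to 1.021, adjusted p = 0.268 from limma). Without 10AF it was -1.12 and passed the threshold (adjusted p = 0.0379 from limma), in the fit that called 2886 genes. The adjusted p ran from 0.0379 to 0.999 over all alternatives. Library 10AF was also the WT library with the most seminal vesicle counts, 4.64% against 1.76% and 0.000808% in the other two, while KO libraries held 6.55 to 10.3%. All 8 seminal vesicle genes had higher means in KO, and 7 of them did not overlap. Skeletal muscle genes moved the other way, with 20 of 20 lower in mean and 19 of them without overlap. Luminal genes took 0.470 to 3.86% of counts in KO and 3.69 to 13.4% in WT, with 3 of 10 lower without overlap and 1 higher. When adjusted for the seminal vesicle score, added after the data were seen, Neat1 had a log2FC of -0.52 (adjusted p = 0.869 from limma), and -0.08 with the skeletal muscle score in its place (adjusted p = 0.999 from limma). The shares of seminal vesicle and of skeletal muscle genes did not overlap between KO and WT at 10 weeks. These fits therefore cannot tell tissue makeup and genotype apart, and the part of these tissues in the result was not tested.

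Malat1 had normalized counts of 138508, 137558 and 137151 in KO and 128861, 138326 and 153179 in WT. The KO libraries were nearly equal and lay inside the WT range. Its log2FC was -0.02 (adjusted p = 0.980 from limma), with a 95% interval of -0.95 to 0.91 that limma widened through its mean trend. Without that trend, a setting added after the data were seen, the interval was -0.36 to 0.32. As a share of all counts Malat1 took 1.79% ± 0.0918 (SD, n = 3) in KO and 1.57% ± 0.0791 in WT, and these shares did not overlap (exact two-sided permutation p = 0.1, the smallest that 3 against 3 libraries can give). Scaling to the same total turned the log2FC to 0.19 and moved the median of all genes by about as much, from -0.01 to 0.20.

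Nono and Pspc1 each overlapped with WT on the scale of normalized counts. Nono, which encodes the partner of SFPQ, held 826, 900.5 and 823 in KO against 819, 859 and 754 in WT (log2FC 0.07, 95% interval -0.20 to 0.34, adjusted p = 0.746 from limma). Pspc1, whose RNA was the least abundant among the genes of the core proteins, held 198, 159 and 209 against 206, 172 and 139 (log2FC 0.14, 95% interval -0.33 to 0.61, adjusted p = 0.704 from limma). As shares of all counts, Malat1, Sfpq and Nono were each higher in KO without overlap, 3 of 5 members, beside 18.6% of all genes. The share of Nono in KO was 0.0110% ± 7.26e-05 (SD, n = 3), against 0.00919% ± 0.00166 in WT (exact two-sided permutation p = 0.1, the smallest possible), and its log2FC after scaling to the same total was 0.28 (adjusted p = 0.351 from limma), beside the median of 0.20 over all genes.

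**Figure D1:**
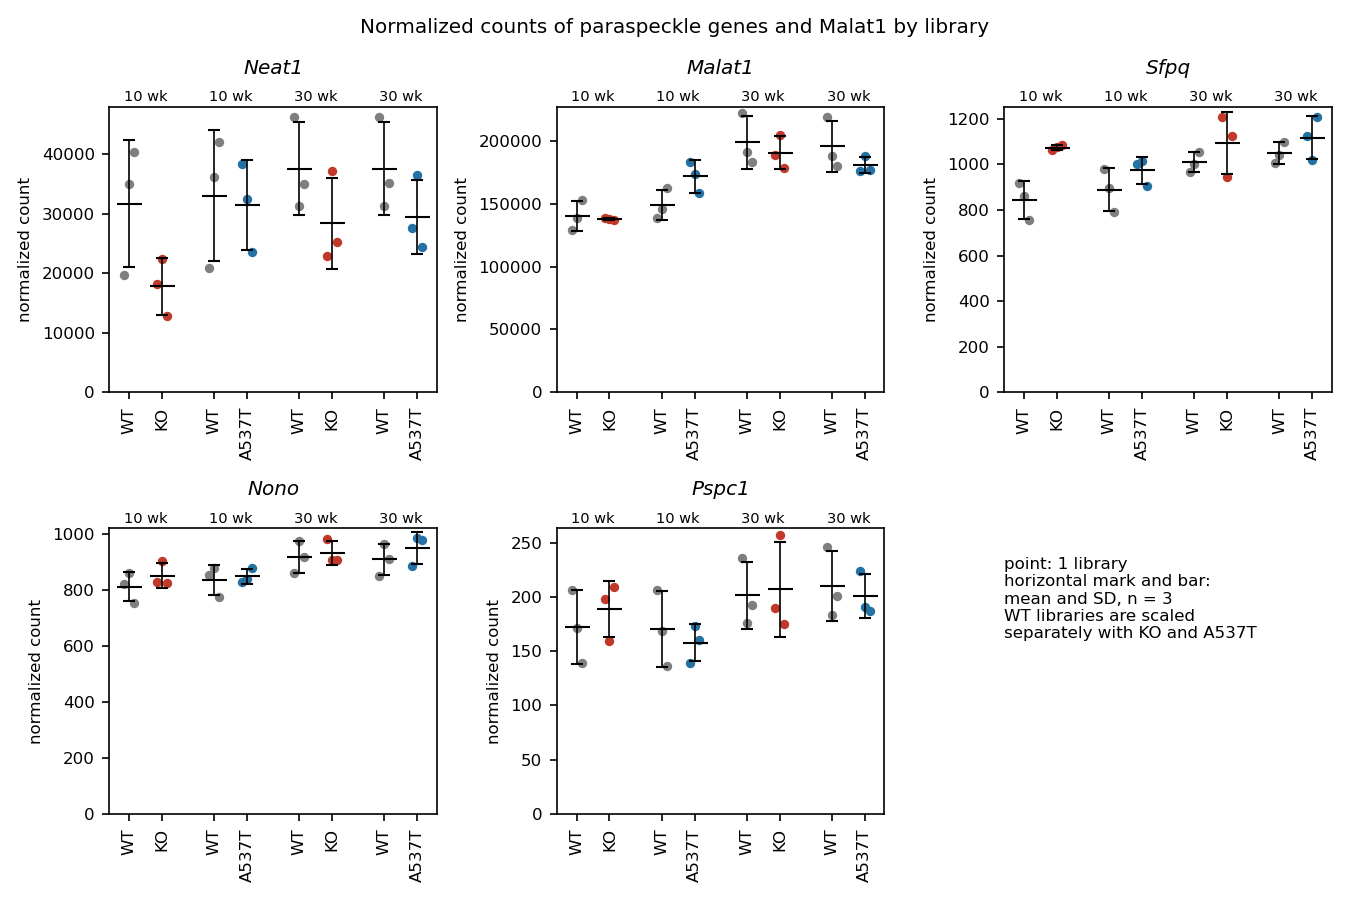
Normalized counts (vertical axes, from 0) of Neat1, Malat1, Sfpq, Nono and Pspc1 in WT (grey), KO (red) and A537T (blue) libraries at 10 and 30 weeks; each point is 1 library and the black marks are the mean and SD of 3. The 3 KO libraries at 10 weeks, at 1062 to 1085, sit above the WT libraries for Sfpq, while Neat1 spreads widely in every group.

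In A537T prostates at 10 weeks no member stood apart from WT in normalized counts. limma called 0 of 15131 genes (0.0%), with 418 higher (2.76%) and 555 lower (3.67%) at an unadjusted p under 0.05, edgeR called 0 and DESeq2 90. Groups did not overlap for 11.9% of all genes and for 0 of 5 members.

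Neat1 in A537T held 38444, 32447 and 23542 normalized counts, and in WT 20892, 36271 and 42077. Both groups covered nearly the same range (log2FC -0.04, standard error 0.36, adjusted p = 0.986 from limma), and the 95% interval allowed 0.545-fold to 1.74-fold. The sign turned under some alternatives, to 0.10 after scaling to the same total and to 0.64 after adjustment for skeletal muscle.

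Malat1 was counted 183477, 173260 and 158123 times in A537T on the normalized scale. In WT the values were 138364, 145792 and 162091. The lowest A537T library lay just under the highest WT library (log2FC 0.21, 95% interval -0.79 to 1.20, adjusted p = 0.922 from limma). As a share of all counts, Malat1 was 2.02% ± 0.0282 (SD, n = 3) in A537T and 1.59% ± 0.0815 in WT, without overlap (exact two-sided permutation p = 0.1, the smallest possible). Skeletal muscle genes took 1.56 to 4.38% of counts in A537T and 3.90 to 12.6% in WT, and the log2FC of Malat1 was 0.35 (adjusted p = 0.765 from limma) after scaling to the same total, 0.25 (adjusted p = 0.894 from limma) with muscle and seminal vesicle genes left out of that total, and 0.39 (adjusted p = 0.920 from limma) after adjustment for skeletal muscle. Shares were higher without overlap in A537T for 8.83% of all genes.

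The genes of the proteins overlapped with WT. Sfpq held 1001, 1016 and 906 in A537T against 979, 898 and 791 in WT (log2FC 0.14, 95% interval -0.18 to 0.45, adjusted p = 0.825 from limma). Nono held 827, 839 and 877 against 852, 878 and 773 (log2FC 0.02, adjusted p = 0.973 from limma). Pspc1 held 139, 173 and 160 against 206, 169 and 136 (log2FC -0.10, adjusted p = 0.922 from limma). For Nono the 95% interval ran from 0.838-fold to 1.23-fold, the narrowest of the 5 members in this comparison.

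At 30 weeks all 5 members of KO mice overlapped with WT. limma called 0 of 14729 genes (0.0%), with 819 higher (5.56%) and 797 lower (5.41%) at an unadjusted p under 0.05, edgeR called 0 and DESeq2 285. Groups did not overlap for 16.3% of all genes and for 0 of 5 members.

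Neat1 counts in KO were 22949, 37170 and 25208, and in WT 46323, 31320 and 35080. KO libraries 4AF and 6AF lay below every WT library, and 5AF lay inside the WT range. Its log2FC was -0.41 (standard error 0.24, 95% interval -0.98 to 0.15, adjusted p = 0.552 from limma). Library 5AF was also the KO library without seminal vesicle counts, at 7.13e-05% against 6.32 and 8.53%, and with the most luminal counts, 14.3% against 4.84 and 6.47%. When adjusted for the seminal vesicle score the log2FC of Neat1 was -0.06 (adjusted p = 0.985 from limma). WT libraries held 0.000335% or less of seminal vesicle counts, so this fit compares KO with WT mostly through 5AF. It cannot tell tissue makeup and genotype apart. Without 5AF the log2FC of Neat1 was -0.62 (adjusted p = 0.1002 from limma).

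Malat1 (log2FC -0.06), Sfpq (0.11), Nono (0.02) and Pspc1 (0.03) differed from WT by less than their standard errors in this comparison. Sfpq was 1209, 943 and 1127 in KO against 969, 1003 and 1056 in WT, and the 2 KO libraries with seminal vesicle counts were the higher ones. Pspc1 had the widest spread, with 189, 257 and 174 in KO. The 95% intervals ran from 0.868-fold to 1.19-fold for Nono and from 0.888-fold to 1.31-fold for Sfpq.

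In A537T prostates at 30 weeks, limma called 0 of 14789 genes (0.0%), with 1087 higher (7.35%) and 929 lower (6.28%) at an unadjusted p under 0.05, edgeR called 0 and DESeq2 476. Groups did not overlap for 18.6% of all genes and for 0 of 5 members. Neat1 counts were 27578, 36514 and 24401 against 46310, 31282 and 35157 in WT (log2FC -0.35, standard error 0.22, adjusted p = 0.490 from limma). As in KO at this age, the 2 libraries below WT, 7AF and 9AF, held 7.24 and 9.17% seminal vesicle counts, and 8AF, inside the WT range, held 7.99e-05%. When adjusted for the seminal vesicle score the log2FC was -0.08 (adjusted p = 0.981 from limma), and without 8AF it was -0.51 (adjusted p = 0.134 from limma). WT libraries held 0.000326% or less, so the adjusted fit compares A537T with WT mostly through 8AF. It cannot tell tissue makeup and genotype apart. Both lines were compared with the same WT libraries, so their values at an age are not independent.

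Malat1 held 176290, 187699 and 177136 in A537T and 218696, 187776 and 180290 in WT (log2FC -0.11, adjusted p = 0.826 from limma). Sfpq held 1124, 1021 and 1207 against 1007, 1041 and 1101 (0.09, adjusted p = 0.714 from limma). The log2FCs were 0.06 for Nono and -0.06 for Pspc1, with 95% intervals of -0.17 to 0.30 and -0.42 to 0.30. All 4 genes overlapped between groups.

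**Figure D2:**
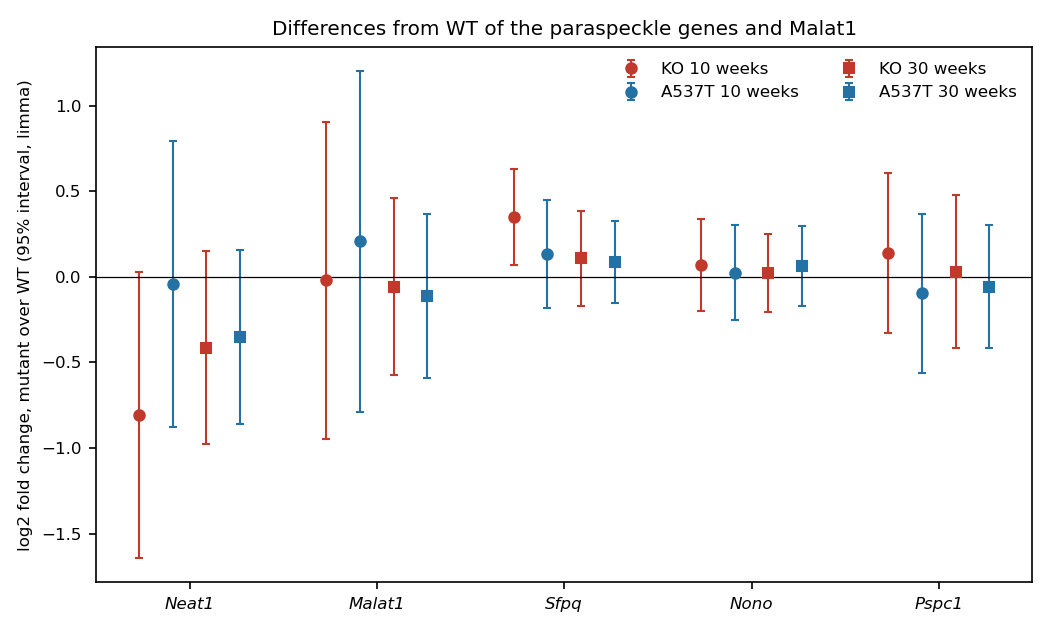
Log2 fold changes of each member over WT (vertical axis) with 95% intervals from limma, for KO (red) and A537T (blue) at 10 weeks (circles) and 30 weeks (squares). The interval of Sfpq in KO at 10 weeks, 0.07 to 0.63, is the only one that leaves out 0, before adjustment over all genes.

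The differences from WT were compared between ages by permuting genotype exactly inside each age, with 400 arrangements in each of 10 tests. None passed the adjustment. Malat1 in A537T differed most, with a log2 difference of 0.21 from WT at 10 weeks and -0.11 at 30 weeks, a change of -0.32 (p = 0.045 and adjusted p = 0.450, exact permutation, two-sided). Neat1 in KO had a change of 0.39, from -0.81 to -0.41, with an adjusted p = 0.861 by the exact permutation test. For Sfpq in KO the change was -0.24, also with an adjusted p = 0.861 by the exact permutation test.

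Ratios within a library do not depend on its size factor. The size of a ratio depends on the lengths of both genes, so only its difference between groups is read. Sfpq over Nono, whose proteins bind each other, was 1.29, 1.20 and 1.32 in KO at 10 weeks. In WT it was 1.12, 1.00 and 1.00. The groups did not overlap, a log2 difference of 0.28 (exact two-sided permutation p = 0.1, the smallest possible). In the other 3 comparisons this ratio overlapped, with log2 differences of 0.11, 0.09 and 0.02.

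Neat1 over Malat1, the long RNAs with tRNA-like ends, was 0.131, 0.163 and 0.0936 in KO at 10 weeks against 0.153, 0.253 and 0.264 in WT, which overlap through library 10AF (log2 difference -0.78, exact permutation p = 0.2). It was below WT in mean in all 4 comparisons, by -0.25 in A537T at 10 weeks, -0.36 in KO and -0.24 in A537T at 30 weeks on the log2 scale, and overlapped in each. Neat1 over Nono and Pspc1 over Nono overlapped in all 4 comparisons. Of the 16 differences in ratio, 1 did not overlap. Groups did not overlap for 26.0 and 11.9% of single genes in KO and A537T at 10 weeks, and for 16.3 and 18.6% at 30 weeks. The count for ratios is thus not above that of single genes.

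**Figure D3:**
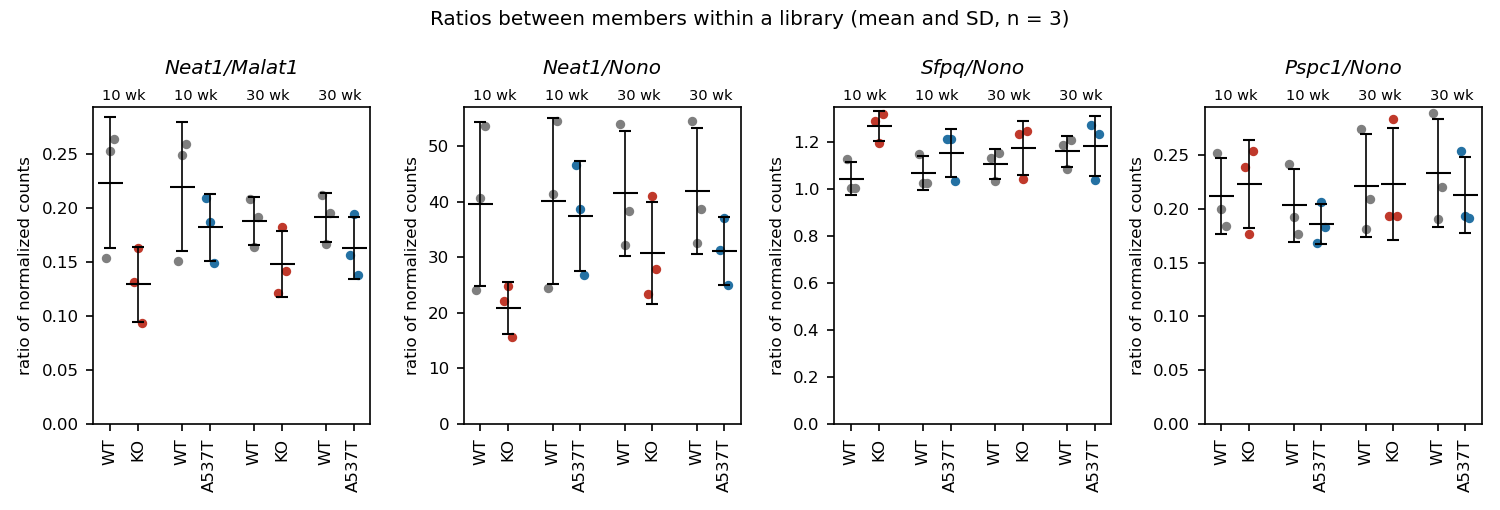
Ratios of normalized counts within a library (vertical axes, from 0) for 4 pairs of members; points are libraries and black marks the mean and SD of 3. Sfpq over Nono in KO at 10 weeks, 1.20 to 1.32, sits above its WT libraries, while Neat1 over Malat1 overlaps with WT in each comparison.

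The members were then related to each other over all 18 libraries, after the mean of its group was taken from each library so that genotype and age do not enter. Of 10 pairs, Neat1 and Malat1 passed the adjustment, with Pearson's r = 0.77 (adjusted p = 0.0122, 100000 permutations within groups) and Spearman's rho = 0.76 (adjusted p = 0.0124, permutation). Mice with more Neat1 than their group had more Malat1 at both ages, with r = 0.79 among the 9 libraries at 10 weeks and 0.79 among the 9 at 30 weeks. Without the 2 libraries farthest in Neat1, r was 0.80. After scaling to the same total r was 0.59 with an adjusted p = 0.209 by permutation, so the pair was past the threshold under the authors' size factors and not under this scaling.

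Neat1 and the mRNA of Sfpq, which encodes a protein that binds Neat1, ran opposite to each other (r = -0.59, permutation p = 0.0454, rho = -0.60, permutation p = 0.0365). They did not pass the adjustment (adjusted p = 0.227 and 0.183, permutation). Their r was -0.35 at 10 weeks and -0.90 at 30 weeks. The other 8 pairs had r between -0.53 and 0.31 and adjusted p of 0.247 or more by permutation. For 4 of them the sign differed between 10 and 30 weeks (9 libraries each): r was -0.84 and 0.72 for Neat1 and Pspc1, -0.69 and 0.73 for Malat1 and Pspc1, 0.62 and -0.63 for Sfpq and Pspc1, and 0.15 and -0.66 for Nono and Pspc1. All 4 of these pairs include Pspc1, and the difference between ages was not tested. Among the mRNAs of the 3 proteins, r was 0.31 for Sfpq and Nono, -0.08 for Sfpq and Pspc1 and -0.28 for Nono and Pspc1. These became 0.67, 0.57 and 0.60 after scaling to the same total. The relations among these mRNAs thus depended on the scaling.

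Neat1 also differed between libraries sorted by their seminal vesicle counts. In the 8 libraries with over 4% seminal vesicle counts, Neat1 took 0.171 to 0.314% of all counts, and in the other 10 it took 0.300 to 0.522%. At 30 weeks the 4 libraries of the first kind, 0.241 to 0.314%, lay below the 5 of the second, 0.335 to 0.522%. At 10 weeks the 4 held 0.171 to 0.275% and the 5 held 0.300 to 0.430%. Those 4 were all KO libraries of that age and WT library 10AF, so tissue makeup and genotype cannot be told apart there. The sorting by marker genes was made after the data were seen, and these ranges are given without a test. For Malat1 the shares overlapped at 10 weeks, with 1.62 to 1.86% in the 4 and 1.49 to 2.05% in the 5. At 30 weeks they did not overlap, with 1.88 to 2.01% in the 4 and 2.03 to 2.49% in the 5. Sfpq normalized counts overlapped at 10 weeks, with 921 to 1085 in the 4 and 755 to 1016 in the 5. At 30 weeks they were higher in the 4, at 1124 to 1209, than in the 5, at 943 to 1101. The shares of Sfpq overlapped at that age, as did Nono and Pspc1 on both scales.

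Within groups, Neat1 followed the mean log2 level of the 10 luminal genes, a relation chosen after the data were seen (r = 0.75, adjusted p = 0.00235, and rho = 0.82, adjusted p = 0.00405, by permutation over 5 members). It had r = 0.79 at 10 weeks and 0.69 at 30 weeks, and 0.73 without the 2 libraries farthest in the luminal level. Malat1 had r = 0.31 (adjusted p = 0.0770 by permutation) and rho = 0.52 (adjusted p = 0.0308 by permutation). Sfpq, Nono and Pspc1 had r = -0.30, 0.12 and -0.30, with adjusted p of 0.200 or more by permutation.

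**Figure D4:**
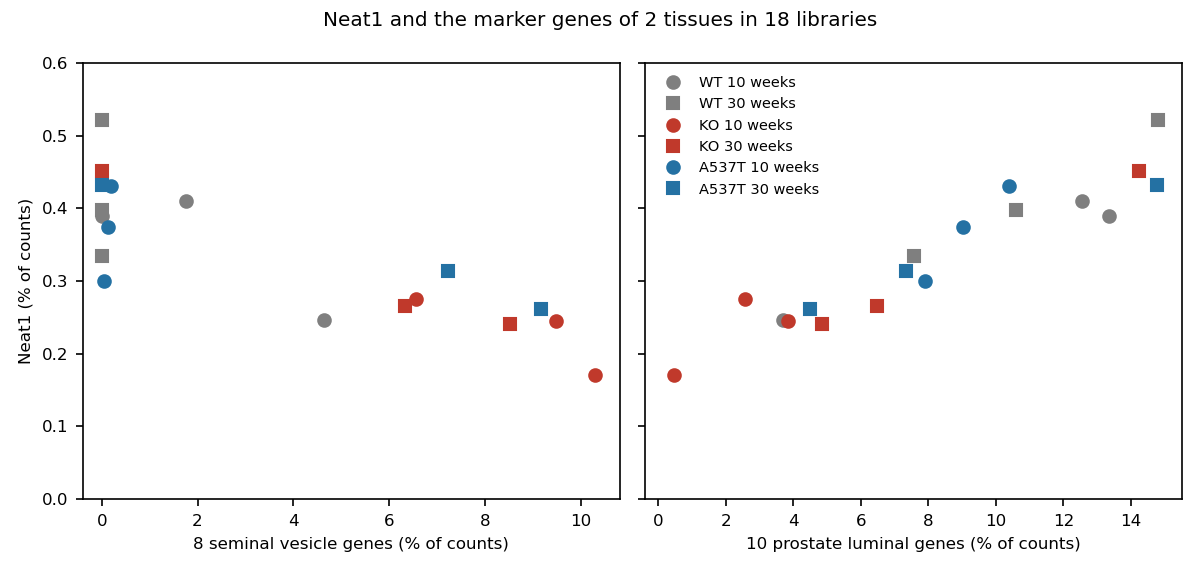
Neat1 as a percent of all counts (vertical axis) against the percent taken by 8 seminal vesicle genes (left) and 10 prostate luminal genes (right) in 18 libraries, with WT read from the tables with KO, colours for genotype and circles and squares for 10 and 30 weeks. Libraries with 4.64% or more seminal vesicle counts hold 0.171 to 0.314% Neat1, and Neat1 is higher where luminal genes take more of the counts.

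The genes whose pattern over the 18 libraries was most like each member, among 9997 others with enough counts, were named by their correlation of log2 values taken relative to WT. For Neat1 they were Gdpd1 (r = 0.986), Slc9a2 (0.985) and Pgap2 (0.982). For Malat1 they were Agpat5 (0.87), Pcdh18 (0.87) and Prkab1 (0.85), and for Sfpq B4galt4 (0.941), BC017158 (0.925) and Fam117b (0.923). Nono was most like Polr3a (0.76), Itgb4 (0.74) and Nfkbiz (0.69), and Pspc1 most like Mfge8 (0.73), Mboat1 (0.72) and Jade2 (0.72). Other members ranked far down these lists, the best being Sfpq at place 620 for Nono. The libraries share tissue makeup and depth, and genes were picked as the highest of many.

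The wider set of 29 paraspeckle proteins besides the 3 core ones had no gene past the threshold in the 4 comparisons by limma. At an unadjusted p under 0.05, 3 were higher and 2 lower in KO at 10 weeks, 0 higher and 3 lower in A537T at 10 weeks, 1 higher and 0 lower in KO at 30 weeks, and 3 higher and 0 lower in A537T at 30 weeks. Of all genes, 7.97% were higher and 11.5% lower in this way in KO at 10 weeks, 2.76 and 3.67% in A537T at that age, 5.56 and 5.41% in KO at 30 weeks and 7.35 and 6.28% in A537T at 30 weeks. The median log2FC was 0.09, 0.01, 0.07 and 0.09 in this order, beside -0.01, 0.01, -0.01 and -0.01 over all genes tested. The medians of this list thus lay within 0.1 of those of all genes.

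In KO, groups did not overlap for 26.0% of all genes at 10 weeks and 16.3% at 30 weeks. Of the paraspeckle genes with the largest differences, Hnrnpr, a nuclear RNA-binding protein, had a log2FC of 0.40 at 10 weeks and 0.35 at 30 weeks in KO, in both without overlap. Rbm3 and Cirbp, the cold-inducible RNA-binding proteins, were on the other side, with Rbm3 at -0.56 in KO and -0.64 in A537T and Cirbp at -0.94 in A537T at 10 weeks (adjusted p = 0.183, 0.746 and 0.746 from limma). Fam98a had -0.53 in KO at 10 weeks, and Rbm14 and Dazap1 had 0.32 and 0.26 in A537T at 10 weeks. At 30 weeks Hnrnpa1 had 0.31, Smarca4, a chromatin remodeller, -0.27 and Dazap1 -0.21 in KO, and Hnrnph1 had 0.35, Zc3h6 -0.33 and Akap8l -0.30 in A537T.

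The 22 nuclear speckle proteins, among which Malat1 resides, also had no gene past the threshold by limma. At an unadjusted p under 0.05 there were 0 in KO at 10 weeks and in A537T at 30 weeks, 1 higher in A537T at 10 weeks and 1 lower in KO at 30 weeks. Of all genes, 2.76 to 7.97% were higher and 3.67 to 11.5% lower in this way over the comparisons. The medians, in the order used above, were 0.06, 0.06, 0.04 and 0.02, beside -0.01, 0.01, -0.01 and -0.01 over all genes. In KO at 10 weeks the splicing factors U2af1 and Rnps1 had -0.46 and -0.19, and Srrm1 and Srsf9 had 0.31 and 0.29. In A537T at 10 weeks Prpf4b and Clk2, kinases of splicing factors, had 0.29 and 0.26, and Rnps1 and U2af1 had -0.25 and -0.18. In KO at 30 weeks Srsf9 and U2af2 had -0.37 and -0.20, and Srsf1 and Sf3b1 had 0.17 and 0.16. In A537T at 30 weeks Srrm2 and Srsf5 had -0.23 and -0.20, and Srsf4 and Srsf3 had 0.18 and 0.14.

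The 14 genes of tRNA-like 3′ end processing are RNase Z, the subunits of RNase P, the enzyme that adds CCA and the La protein, and 13 passed the filter. None passed the threshold by limma, and 0 of 13 had an unadjusted p under 0.05 in any comparison. Beside this, 2.76 to 7.97% of all genes were higher and 3.67 to 11.5% lower at that cut over the comparisons. In KO at 10 weeks 11 of 13 were below WT, with a median of -0.31. Elac2, the targeted gene, is 1 of those below WT, and its own log2FC of -0.31 is this median. Scaled to the same total, 9 of 13 were below WT with a median of -0.10, while the median of all genes was 0.20, and the list took 0.0149 to 0.0174% of counts in KO and 0.0163 to 0.0172% in WT. In the other 3 comparisons, in the same order, the medians were -0.08, -0.01 and 0.03, and that of A537T at 10 weeks turned to 0.05 when scaled to the same total. Rpp14 and Pop4, of RNase P, had log2FCs of -0.62 and -0.36 in KO at 10 weeks (adjusted p = 0.326 and 0.441 from limma), and Elac1, the short RNase Z, 0.09. Trnt1, which adds CCA, had -0.27 in KO and -0.33 in A537T at 30 weeks, in both without overlap (adjusted p = 0.509 and 0.391 from limma). Groups did not overlap for 16.3 and 18.6% of all genes in these comparisons, which share their WT libraries. In A537T at 10 weeks Pop5 and Pop4 had -0.17 each, and Rpp14 0.39. At 30 weeks in KO Elac1 had 0.05 and Pop4 0.04, and in A537T Rpp14 had 0.30 and Pop4 0.005.

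**Figure D5:**
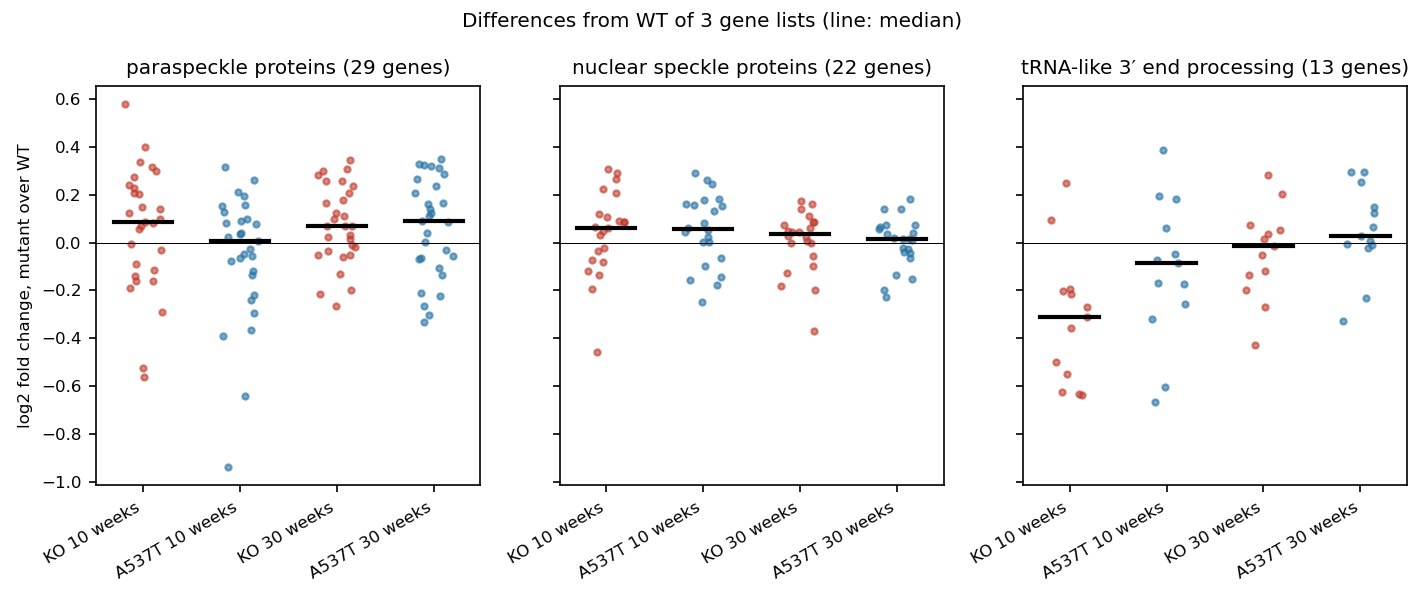
Log2 fold changes over WT (vertical axis) of each tested gene of 3 lists in the 4 comparisons, with a black line at the median. The medians of the paraspeckle and nuclear speckle lists lie between 0.01 and 0.09. The median of the processing list in KO at 10 weeks is -0.31, which is the value of Elac2, the targeted gene.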

How the data were processed

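Total RNA of ventral and lateral prostate lobes was sequenced (TruSeq, NovaSeq). Whether RNA was selected by poly(A) or depleted of rRNA is not given in the sources used here, and Malat1 and long Neat1 lack an ordinary poly(A) tail. The authors trimmed reads (Trim Galore 0.4.1, cutadapt 1.18), aligned them with STAR 2.7.3a to GRCm38.p6 and quantified them with Salmon. The authors deposited 4 tables of 6 libraries whose signal values are counts per gene, each library divided by its size factor from DESeq2 1.26. Columns were assigned to groups but not to replicates. Whole counts were recovered by size factor, with at least 99.98% of values whole within 0.01 of a count. Recovered counts of a WT library differed between its tables for 53.6 to 64.1% of genes, by up to 5.88% for Pspc1 and 4.25% for Sfpq. They are therefore not raw read counts, and ratios within a WT library differ between its tables as well. For WT library 1AF, Sfpq over Nono was 1.13 in the table with KO and 1.19 in the table with A537T. Tables of fold changes and p-values, which hold the authors' own comparisons, were not used.

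A mutant group was tested against the WT libraries in the same table, for genes with a mean of 10 or more, on log2(normalized count + 1) with limma 3.58.1 (R 4.3.3, eBayes with a mean trend), p was adjusted over all genes by the Benjamini-Hochberg method, and the threshold was 0.05. Fold changes are on that scale. Nothing says which litter a mouse came from, so p-values measure the spread between these samples. Alternatives were pseudocount 8, minimum means of 1 and 100, same totals, tissue scores as covariates, edgeR 4.0.16, DESeq2 1.42.0, no mean trend (added after the data were seen) and leaving out each library. Ratios, shares and age changes were tested by exact permutation and relations by 100000 permutations within groups (scipy 1.17.1). Named beside the members were Elac2, the 2 largest increases and 2 largest decreases of each list with a mean of at least 50, and the 3 genes most alike; 1 gene that this rule names is not reported here. The members and lists were chosen with earlier results of these data known, and the lists were written by hand.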

Additional observations from a re-analysis of the deposited data

How the results depend on the processing

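Of 310 values of the members under other settings, 277 kept their direction and their side of the threshold, 31 changed sign and 2 passed the threshold, those of Neat1 and Sfpq in KO at 10 weeks without WT library 10AF. That fit called 2886 genes, so these 2 passed together with many others. The cause of each change was not tested. Scaling to the same total moved the median of all genes to 0.20 in KO and 0.15 in A537T at 10 weeks. Under it the log2 fold change was 0.19 for Malat1 in KO at 10 weeks, 0.10 for Neat1 and 0.041 for Pspc1 in A537T at 10 weeks, and the change with age in A537T was -0.075 for Nono and -0.076 for Pspc1. The same scaling gave r = 0.59 for Neat1 and Malat1, 0.041 for Neat1 and Pspc1, 0.059 for Malat1 and Sfpq, 0.36 for Malat1 and Nono, 0.57 for Sfpq and Pspc1 and 0.60 for Nono and Pspc1. With muscle and seminal vesicle genes left out of the total, Malat1 had 0.18 in KO at 10 weeks and 0.0093 in KO at 30 weeks, and Pspc1 0.047 in A537T at 30 weeks. With the skeletal muscle score as covariate, Malat1 had 0.028 and Pspc1 -0.28 in KO, and Neat1 0.64 and Nono -0.074 in A537T, at 10 weeks. With the seminal vesicle score as covariate, Malat1 had 0.075, Nono -0.012 and Pspc1 -0.078 in KO at 10 weeks, Malat1 0.022, Sfpq -0.079 and Nono -0.00079 in KO at 30 weeks, and Sfpq -0.027 in A537T at 30 weeks.

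limma called 0 genes in each comparison. DESeq2 on recovered counts called 715 and 90 genes in KO and A537T at 10 weeks and 285 and 476 at 30 weeks. Without a mean trend limma called 1 gene in KO and 2 in A537T at 10 weeks, with a minimum mean of 1 it called 2 in A537T at 10 weeks, and with the seminal vesicle score it called 3 in A537T at 30 weeks. Leaving out 1 library gave 0 to 2886 genes in KO at 10 weeks (2886 without 10AF and 185 without 14AF), 0 to 50 in A537T at 10 weeks (50 without 10AF), 0 to 944 in KO at 30 weeks (944 without 5AF) and 0 to 1224 in A537T at 30 weeks (1224 without 8AF).

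Leaving out 1 library gave log2 fold changes in KO at 10 weeks of -1.12 to -0.59 for Neat1, 0.27 to 0.41 for Sfpq, -0.080 to 0.045 for Malat1 and -0.0058 to 0.28 for Pspc1. In A537T at 10 weeks they were -0.34 to 0.16 for Neat1, -0.030 to 0.061 for Nono and -0.25 to 0.050 for Pspc1. In KO at 30 weeks they were -0.12 to 0.025 for Malat1, -0.024 to 0.067 for Nono and -0.14 to 0.15 for Pspc1, and in A537T at 30 weeks -0.15 to 0.059 for Pspc1. The change with age ran from -0.10 to 0.046 for Malat1, -0.093 to 0.0046 for Nono and -0.28 to 0.036 for Pspc1 in KO, and from -0.12 to 0.034 for Sfpq, -0.0063 to 0.094 for Nono and -0.11 to 0.19 for Pspc1 in A537T. The log2 difference of Pspc1 over Nono in KO ran from -0.030 to 0.23 at 10 weeks and from -0.18 to 0.17 at 30 weeks, and in A537T from -0.22 to 0.010 and from -0.26 to 0.042. That of Neat1 over Nono ran from -0.38 to 0.19 in A537T at 10 weeks, and that of Sfpq over Nono from -0.033 to 0.12 in A537T at 30 weeks. No paired analysis was possible because the columns carry no replicate number. The printed intervals, made before adjustment over all genes, give the differences that the values do not exclude. With 3 libraries a group, the permutation tests of ratios and shares cannot pass the threshold.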
